A study of Drosophila melanogaster with 8 samples.

Results

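The transient genes are the genes whose wild-type mRNA climbed early in Drosophila embryos and was largely gone again by 4-5 h after egg laying. They were chosen by their measured wild-type levels. A gene was taken if its FPKM (fragments per transcript length, scaled by library depth) at 2-3 h was at least 10, at least 3 times that at 0-0.5 h and at least 3 times that at 4-5 h, with at least 1 FPKM at 1-2 h or 0-0.5 h. Its locus also had to span at least 300 bases and its value had to carry the Cufflinks status OK in all 8 tables. That status was OK for 15592 genes and is no measure of precision. Of the 15598 genes listed, 31 met the rule. Another 178 genes met the same rise, floor, span and status but not the fall, and these sustained risers serve as the comparison set. The steps up to the rise left 209 genes, so the fall was the step that set the 31 apart.

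Polyadenylated RNA was sequenced from pooled early embryos of 2 crosses. Maternal NSUN2 knockout embryos, collected at 0-0.5 h, 2-3 h and 4-5 h, came from NSUN2-/- virgin females mated to w1118 males. Wild-type embryos, collected at 0-0.5 h, 1-2 h, 2-3 h, 3-4 h and 4-5 h, came from w1118 virgins (WIII8 in the labels) mated to w1118 males. NSUN2 is an RNA methyltransferase that places 5-methylcytosine, and its gene lies on the X chromosome, so all knockout embryos lacked the maternal product while daughters carried a wild-type copy from the father and sons carried none. The mutant alleles came from Cas9 cutting of the coding sequence. More than 1 line was made, and the labels do not say which one gave these embryos. There was 1 table per condition, so no difference below has a replicate check or a test, and each is given as a size beside the same measure over all genes. The intervals quoted are those of Cufflinks for a single table and do not cover the spread between collections.

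In the fly embryo the first nuclear divisions run fast, share 1 cytoplasm and depend on RNA and protein laid down by the mother. Zygotic transcription starts with a small set of genes, many of them short and without introns. The divisions then pause, membrane grows down between the nuclei to form cells (cellularisation), and gastrulation follows. Several genes of the early set act only around cellularisation, and their mRNAs are removed soon after.

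The mutated gene, listed as Nsun2, had 0.128 to 1.18 FPKM in the knockout tables, against 2.61 to 6.59 FPKM in the 3 wild-type tables of the same times. Stage was read from 3 lists of marker genes. The 8 maternal markers summed to 2713 FPKM in the knockout at 2-3 h, against 573 FPKM in wild type, and all 8 stood at 1 FPKM or more in both. One of them, CycB, alone had 1423 and 138 FPKM of these sums. The medians of the 8 were 178 FPKM in the knockout and 46.0 FPKM in wild type. The 10 early zygotic markers, zen among them, summed to 108 FPKM in the knockout and 359 FPKM in wild type, with 9 and 10 of the 10 at 1 FPKM or more. Their medians were closer, at 8.80 and 14.5 FPKM. The 8 markers of later stages summed to 8.65 FPKM, against 19.6 FPKM, with 2 and 5 of the 8 at 1 FPKM or more. HLHmgamma alone had 3.80 and 7.54 FPKM of these sums, and the medians of the 8 were 0.342 and 1.86 FPKM. No fragment counts are given, and precision shows only in the Cufflinks intervals, whose half-width for the 31 genes had a median of 6.04% of the value in the knockout and 4.23% in wild type at 2-3 h, and 14.7% and 14.8% at 4-5 h. Scaling also moved the base line: the median difference of all genes, knockout minus wild type at 2-3 h, was 0.26 on the log2(FPKM + 1) scale as deposited, -0.09 after median-of-ratios scaling and 0 after quantile normalization. In whole embryos, fewer cells or embryos that express a gene and less RNA in each cannot be told apart.

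The name was checked against the wild-type course, whose levels are a description because they chose the members. The highest of the 5 wild-type tables was 2-3 h for 21 genes, 1-2 h for 8 and 3-4 h for 2. The 8 that were already highest at 1-2 h were CG14317, Bsg25A, CG34137, CG15634, CG15382, bnk, zen and slam. The 2 that were highest at 3-4 h were term and CG7271, so for 10 of the 31 the peak was not at 2-3 h. The median level of the 31 genes in wild type was 17.5, 129.6, 151, 27.2 and 10.1 FPKM from 0-0.5 h to 4-5 h. Together they held 0.0920%, 0.985%, 1.45%, 0.246% and 0.0760% of the summed FPKM at these times.

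**Figure D1:**
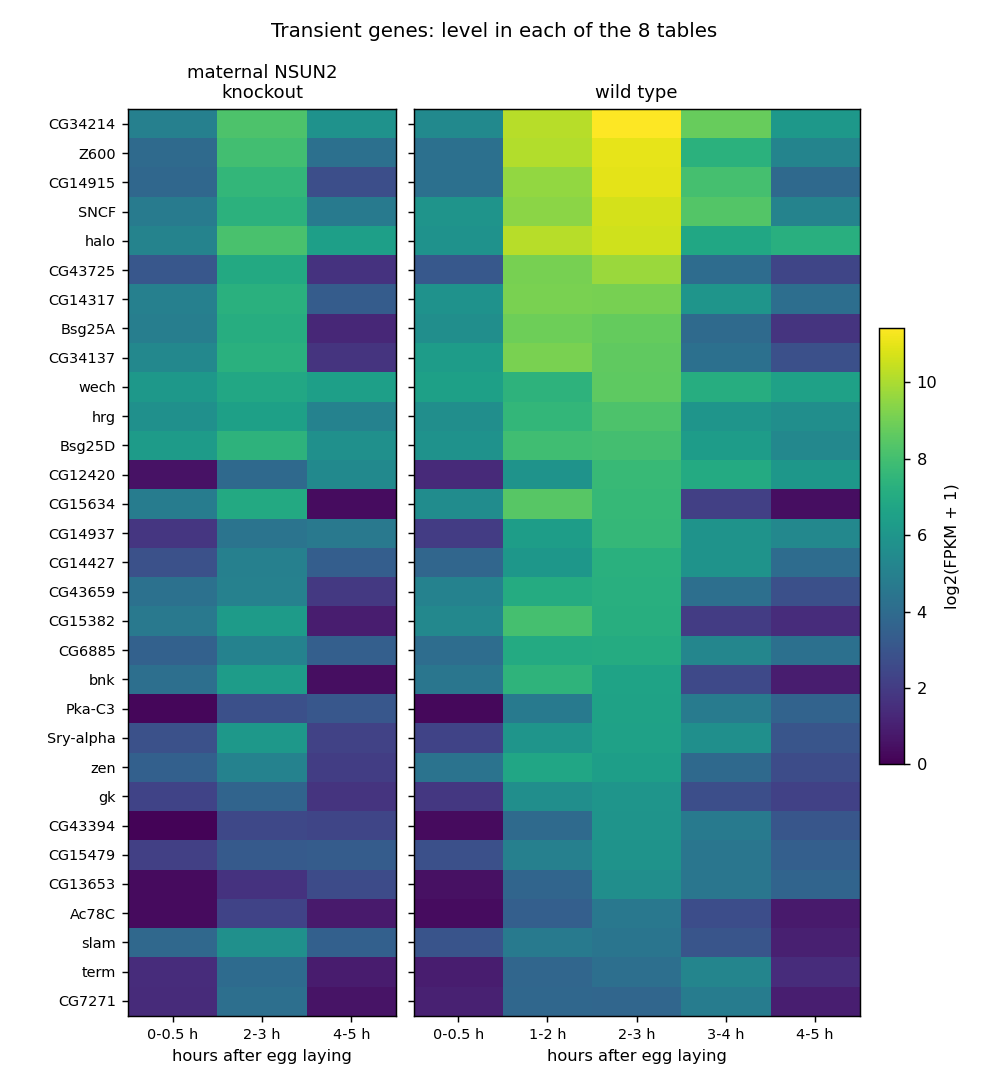
Level of each of the 31 transient genes (one per line, ordered by wild-type FPKM at 2-3 h) in the 3 knockout tables and the 5 wild-type tables, as log2(FPKM + 1) by colour. The 2-3 h column was the brightest of the knockout block for 26 genes, and the wild-type block was brightest at 1-2 h or 2-3 h for all but term and CG7271.

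The 3-4 h table was not used by the rule, and it showed how early the decline came, although the 2-3 h level it is set against was chosen as high. At 3-4 h, 27 of the 31 genes were at least 2-fold lower than at 2-3 h, where 10.6% of the 8497 genes tested were. The genes tested had the same status and span and 1 FPKM or more in some table. The median difference of the 31 genes was -2.25, against 0.59 for all genes and 0.82 for the sustained risers. Here 2-fold always means a difference of 1 or more in log2(FPKM + 1), a measure that makes changes of genes with low values look smaller than they are. The steepest decline over this hour on that scale was -5.67 for CG43725, with 15.6 FPKM at 3-4 h against 844 FPKM at 2-3 h. CG15634, CG15382, Bsg25A, CG34137 and bnk were also more than 20-fold lower in FPKM. Only term and CG7271 were at least 2-fold higher at 3-4 h, by 1.05 each, in a comparison in which 38.4% of all genes were that much higher. Set against the median of all genes, neither reached 2-fold.

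The onset also lay mostly before 2-3 h. Between 0-0.5 h and 1-2 h, 30 of the 31 genes were at least 2-fold higher at the later time, where 3.18% of all genes were. The median difference was 3.08 for the transient genes and 1.66 for the sustained risers, of which 127 of 178 passed 2-fold. The exception was wech, with 165 FPKM at 1-2 h against 88.9 FPKM at 0-0.5 h. This contrast shares its 0-0.5 h table with the rule, so the count is in part set by the choice. At 0-0.5 h in wild type, 18 of the 31 genes stood at 10 FPKM or more (58.1%, against 57.1% of all genes). At 1 FPKM or more there were 26 (83.9%, against 78.4% of all genes), so both shares were near those of all genes.

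The knockout levels were not used in choosing the genes, beyond the need for an OK status in each table. The highest of the 3 knockout tables was 2-3 h for 26 of the 31 genes (and for 2378 of all 8497 genes) and 4-5 h for the other 5. In the knockout, 28 of the 31 genes were at least 2-fold higher at 2-3 h than at 0-0.5 h, against a background of 2.99% of all genes, with a median difference of 2.18. Among the sustained risers 101 of 178 were. The 3 that did not reach 2-fold were wech, hrg and CG43659, at 0.73 to 0.77. From 2-3 h to 4-5 h, 24 of the 31 genes became at least 2-fold lower in the knockout, where 11.1% of all genes did and none of the 178 sustained risers did. The median difference was -2.40 for the transient genes and 2.49 for the sustained risers.

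Applied to the knockout tables alone, the thresholds on level, rise and fall picked 21 genes, and 20 of these were among the 31. This comparison was chosen after the values had been seen. The shared genes were 95.2% of the knockout set and 64.5% of the wild-type set. The 1 gene found only in the knockout was Cp15, a gene for an eggshell protein, with 2.31, 11.7 and 1.15 FPKM at 0-0.5 h, 2-3 h and 4-5 h in the knockout and 0.819 to 1.34 FPKM in wild type. The 11 transient genes that the knockout set lacked were under 10 FPKM at 2-3 h in the knockout or missed at least 1 of the ratios.

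**Figure D2:**
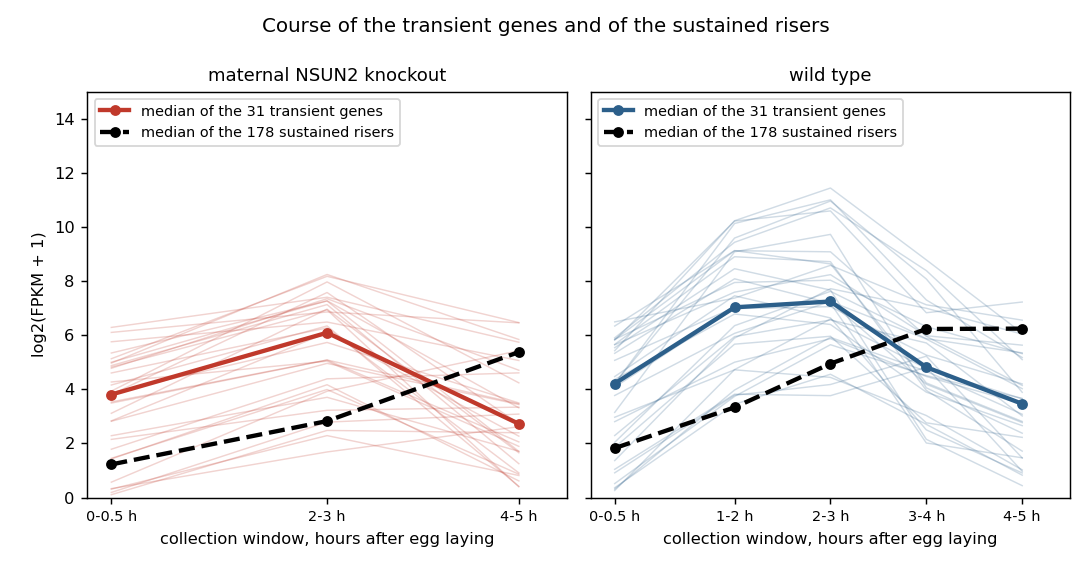
Courses of the transient genes in the knockout (left) and in wild type (right), as log2(FPKM + 1) at the middle of each collection window. Thin lines are single genes, the coloured line is the median of the 31 transient genes and the dashed black line the median of the 178 sustained risers; the transient median turned down after 2-3 h in both panels while the sustained median kept climbing to 4-5 h in the knockout.

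The size of the hump differed between the genotypes. At 2-3 h the median of the 31 genes was 67.1 FPKM in the knockout and 151 FPKM in wild type. At least 2-fold lower in the knockout were 23 of the 31, where 9.09% of all genes were, and 1 was at least 2-fold higher, where 29% were. The median difference was -2.17 as deposited, or -2.43 relative to the median of all genes. The wild-type value at 2-3 h chose these genes as high ones, so part of this difference is set by the choice. The sustained risers, chosen on the same rise, had a median difference of -2.57 and 161 of 178 at least 2-fold lower. The summed share of the 31 genes was 0.328% in the knockout and 1.45% in wild type at 2-3 h. The maternal, early zygotic and later-stage markers differed between these 2 tables too, as given above, and their part in the result was not tested.

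The deficit at 2-3 h was unequal across the 31 genes. The difference between knockout and wild type ran from -3.96 for CG13653 to 1.29 for slam. The 8 genes that were already highest at 1-2 h in wild type had a median of -1.11, and the 21 that were highest at 2-3 h had a median of -2.64. For the 2 genes highest at 3-4 h the differences were -0.18 and 0.40. These groups were formed from the wild-type values, which also enter the difference, so the ordering is a description. The Cufflinks intervals were apart, with the knockout lower, in 28 genes, where 28.9% of all genes were, and apart with the knockout higher in slam and CG7271, where 50.4% were. Among the sustained risers 176 of 178 were lower with intervals apart.

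**Figure D3:**
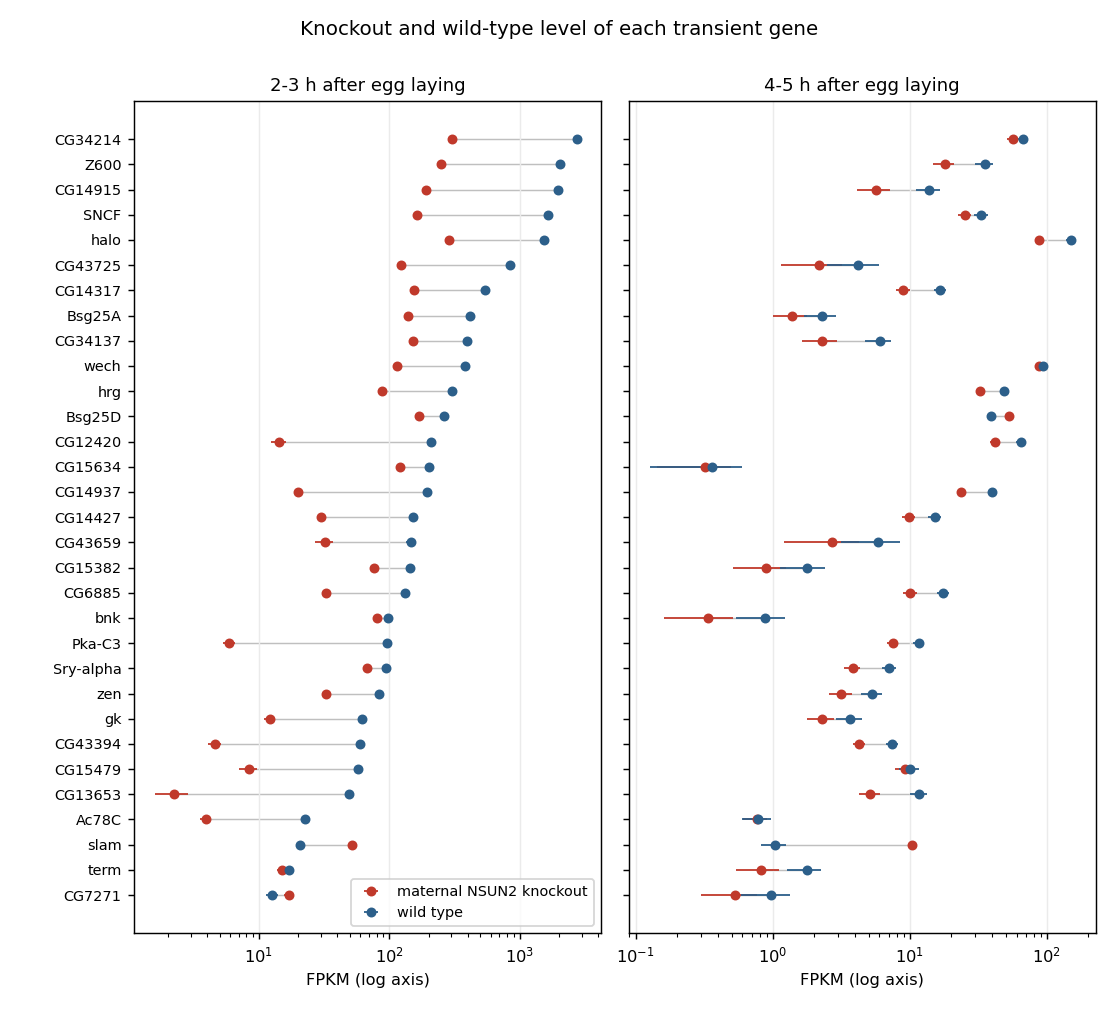
FPKM (log axis) of each transient gene in the knockout and in wild type at 2-3 h (left) and 4-5 h (right), with the Cufflinks interval of each value as a bar. At 2-3 h the knockout point lay to the left for 29 of 31 genes and slam and CG7271 were the exceptions. The knockout was also lower in 178 of 178 sustained risers and in 40.2% of all genes at this time. At 4-5 h most pairs lay closer together, with slam and Bsg25D to the right.

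Genes of cellularisation made up the largest group with a known role, and they did not move as one. Slam protein directs membrane growth at the base of the furrows. slam had 13.6, 52.1 and 10.3 FPKM at 0-0.5 h, 2-3 h and 4-5 h in the knockout, against 6.83, 20.7 and 1.04 FPKM at the same times in wild type, where it stood at 25.4 FPKM at 1-2 h and 7.18 FPKM at 3-4 h. It was the one transient gene that was higher in the knockout at all 3 times. At 2-3 h it was 2.51-fold higher in FPKM, a difference of 1.29 on the log2(FPKM + 1) scale that shrank to 0.76 after median-of-ratios scaling and 0.57 after quantile normalization, below 2-fold in both. At 4-5 h it was 9.92-fold higher, with a knockout interval of 9.71 to 10.9 FPKM and a wild-type interval of 0.816 to 1.26 FPKM.

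Sry-alpha, whose product organises actin at the furrows, was lower in the knockout at 2-3 h by less than 2-fold as deposited. It had 6.13, 67.1 and 3.83 FPKM there, against 3.91, 93.5 and 7.09 FPKM at the same times in wild type, with 60.7 FPKM at 1-2 h and 51.5 FPKM at 3-4 h. The knockout value at 2-3 h was 71.8% of wild type, and the difference of -0.47 became -1.01 after median-of-ratios scaling. bnk (bottleneck) restrains the actin network until the furrows have passed the nuclei. It had 16.9, 80.2 and 0.336 FPKM in the knockout, against 21.2, 98.5 and 0.880 FPKM in wild type, which was higher still at 1-2 h with 174 FPKM. At 2-3 h bnk reached 81.4% of the wild-type level, and from 2-3 h to 4-5 h it was 239-fold lower in the knockout.

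CG34137 (now named dunk) acts on myosin at the cell cortex in cellularisation. It had 39.5, 153 and 2.27 FPKM in the knockout, against 79.9, 396 and 6.03 FPKM in wild type, with 557 FPKM at 1-2 h and 17.8 FPKM at 3-4 h. It was therefore lower in the knockout at each matched time, with differences of -1.37 at 2-3 h and -1.10 at 4-5 h. CG14427, placed on the cellularisation list without a role given here, had 6.07, 30.1 and 9.85 FPKM in the knockout, against 12.7, 151 and 15.3 FPKM in wild type. At 2-3 h it was 5.01-fold lower than in wild type. The sixth gene of that list, halo, follows below.

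Over the whole list of 13 cellularisation genes, 6 were transient genes by the rule, where 31 of the 8497 genes tested were. At 2-3 h 3 of the 13 were at least 2-fold lower and 3 at least 2-fold higher in the knockout, where 9.09% of all genes were lower and 29% higher. nullo, which acts beside bnk and Sry-alpha, was not among the 31 because its wild-type level was already low at 2-3 h. It had 30.6, 42.0 and 0.285 FPKM in the knockout, against 59.5, 11.8 and 0.346 FPKM at the same times in wild type, with 114 FPKM at 1-2 h. Its knockout level at 2-3 h was thus the higher one, while at 0-0.5 h it was the lower one.

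**Figure D4:**
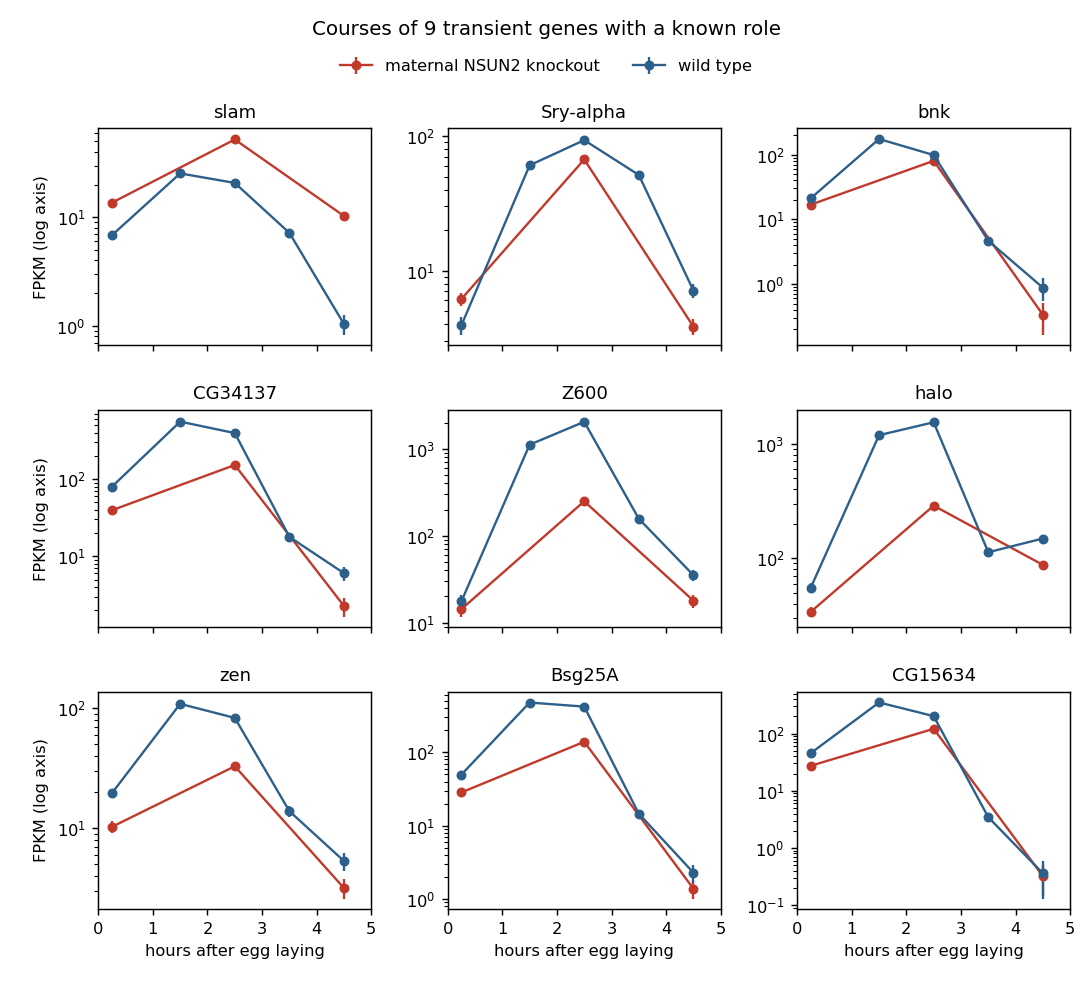
FPKM (log axis) of 9 transient genes with a known role over time, in the knockout (3 windows) and in wild type (5 windows), with Cufflinks intervals as bars. The knockout line lay above the wild-type line at all 3 shared times for slam. It lay below at all 3 for CG34137, Z600, halo, zen, Bsg25A, bnk and CG15634, and for Sry-alpha it was above at 0-0.5 h only. At 2-3 h bnk, Sry-alpha and CG15634 reached 81.4%, 71.8% and 60.1% of wild type.

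Z600 (FBgn0004052, also called fruhstart, 3L:15502161-15502613 in BDGP5) encodes a small protein that binds cyclins and holds the cell cycle while cells form. It had 14.3, 249 and 17.9 FPKM in the knockout, against 17.5, 2047 and 35.2 FPKM in wild type, which also had 1116 FPKM at 1-2 h and 157 FPKM at 3-4 h. Both genotypes started at a like level, with the knockout at 81.5% of wild type at 0-0.5 h. At 2-3 h the knockout was 8.21-fold lower, and yet 17.4-fold above its own 0-0.5 h value. Z600 overlaps gdl by 69 bases, and gdl itself stood at 73.9 FPKM in the knockout and 74.2 FPKM in wild type at 2-3 h.

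The other cell cycle genes of the list did not share this course. Of the 8 tested, Z600 was the only transient gene and the only one at least 2-fold lower in the knockout at 2-3 h, while 3 were at least 2-fold higher, in a comparison in which 9.09% of all genes were that much lower and 29% that much higher. The 3 were CycB (cyclin B), stg, whose phosphatase drives cells into mitosis, and dap, an inhibitor of cyclin-dependent kinase. CycB had 1423 FPKM in the knockout at 2-3 h against 138 FPKM in wild type, stg 30.5 FPKM against 3.99 FPKM, and dap 34.2 FPKM against 10.2 FPKM.

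halo (FBgn0001174, 2L:1517532-1518184) encodes a cofactor that steers lipid droplets along microtubules at the time of cellularisation. It had 34.0, 288 and 87.4 FPKM in the knockout, against 55.4, 1539.5 and 149 FPKM in wild type, with 1188 FPKM at 1-2 h and 113 FPKM at 3-4 h. halo was the only transient gene that was higher at 4-5 h than at 3-4 h in wild type. Its knockout value was below wild type at each matched time, with 18.7% at 2-3 h and 58.8% at 4-5 h.

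A pair of members belong to one protein complex. Bsg25A (now Elba1) and CG15634 (now Elba3) encode subunits of ELBA, an insulator complex of the early embryo. Bsg25A (2L:4683050-4684459) had 28.4, 139 and 1.39 FPKM in the knockout, against 49.6, 419 and 2.29 FPKM in wild type, with 476 FPKM at 1-2 h and 14.6 FPKM at 3-4 h. CG15634 (2L:4687513-4688956) had 27.3, 121 and 0.321 FPKM in the knockout, against 45.5, 202 and 0.359 FPKM in wild type, with 350.0 FPKM at 1-2 h and 3.45 FPKM at 3-4 h. In the knockout both genes stood at like levels at 0-0.5 h and 2-3 h, while in wild type Bsg25A was the higher one from 1-2 h on. At 4-5 h both genes' intervals overlapped between the genotypes.

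The third subunit, Elba2, is encoded by CG9883, which was not a member. It had 118, 216 and 82.4 FPKM in the knockout, against 58.5, 109 and 17.6 FPKM in wild type, with 130.2 FPKM at 1-2 h and 58.9 FPKM at 3-4 h. So it was higher in the knockout at the 3 matched times. Both transient subunits were lower there, though at 4-5 h their intervals overlapped between the genotypes. At 2-3 h the difference of CG9883 was 0.97, just under 2-fold, and 50.4% of all genes were higher in the knockout with intervals apart. Elba1 and Elba3 lay beside each other on 2L, 3053 bases apart and with no gene between, and CG9883 lies on the same arm.

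Among patterning genes, zen was the only transient one. It encodes a homeodomain protein that specifies the amnioserosa, the most dorsal tissue of the embryo. zen had 10.3, 32.9 and 3.16 FPKM in the knockout, against 19.6, 83.2 and 5.32 FPKM in wild type, with 109 FPKM at 1-2 h and 13.9 FPKM at 3-4 h. It was 2.53-fold lower in the knockout at 2-3 h and stood at 59.5% of wild type at 4-5 h, with the intervals apart at both times. Of the 36 dorsoventral and mesoderm genes tested, 11 were sustained risers, and 21 were at least 2-fold lower in the knockout at 2-3 h and 2 higher, where the shares of all genes were 9.09% and 29%.

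No gap and terminal gene (19 tested), pair-rule gene (11), Bearded or Notch gene (19) or gene of the sex signal (8) was transient by the rule. Only 31 of the 8497 genes tested were, so finding none in lists of this size sets them apart from other genes in no way. Pair-rule genes such as ftz and eve were highest in wild type at 3-4 h, with 91.9 and 8.30 FPKM, and were lower at 4-5 h, with 13.6 and 0.334 FPKM. Their highest table was therefore the one after 2-3 h, where most transient genes stood highest.

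Bsg25D (now Nin) encodes the fly homologue of ninein, a centrosome protein. It had 77.1, 168 and 52.5 FPKM in the knockout, against 56.6, 261 and 38.9 FPKM in wild type, with 246 FPKM at 1-2 h and 78.6 FPKM at 3-4 h. Knockout levels were the higher ones at 0-0.5 h and 4-5 h and the lower one at 2-3 h, so that its course was flatter. The intervals were apart at all 3 times.

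wech and hrg increased least in the knockout. wech encodes a protein that links integrins to the cytoskeleton in muscle attachment. It had 67.7, 114.9 and 86.8 FPKM in the knockout, against 88.9, 382 and 93.0 FPKM in wild type, with 165 FPKM at 1-2 h and 138 FPKM at 3-4 h. hrg encodes a poly(A) polymerase, and it had 53.1, 88.6 and 32.5 FPKM in the knockout, against 49.0, 301 and 48.6 FPKM in wild type, with 192 FPKM at 1-2 h and 62.2 FPKM at 3-4 h. In both genes a high 0-0.5 h level was topped up in the knockout by less than 2-fold, and the 2-3 h value stood at 30.1% and 29.5% of wild type.

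The most abundant transient mRNAs came from small genes, most of them with no role given here. CG34214 (FBgn0085243, 2R:20552950-20553543) was the highest of all. It had 30.3, 302 and 56.4 FPKM in the knockout, against 42.0, 2768 and 66.5 FPKM in wild type, with 1197 FPKM at 1-2 h and 439 FPKM at 3-4 h. CG14915 (2L:11071027-11071532) had 13.0, 189.9 and 5.62 FPKM in the knockout, against 17.7, 1984 and 13.8 FPKM in wild type, with 769 FPKM at 1-2 h and 269 FPKM at 3-4 h. At 2-3 h these genes were 9.17-fold and 10.5-fold lower in the knockout, and at 0-0.5 h they stood at 72.1% and 73.5% of wild type.

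SNCF (3L:13371683-13372290) had 26.4, 162 and 25.1 FPKM in the knockout, against 58.8, 1664 and 33.2 FPKM in wild type, with 689 FPKM at 1-2 h and 333 FPKM at 3-4 h. It was the only transient gene at least 2-fold lower in the knockout at 0-0.5 h, by a difference of -1.12. CG43725 (2L:11075513-11075962) had 7.67, 124 and 2.16 FPKM in the knockout, against 7.86, 844 and 4.20 FPKM in wild type, with 540.1 FPKM at 1-2 h. Its knockout level was 97.5% of wild type at 0-0.5 h and 14.6% at 2-3 h. CG14317 (now bard, 3R:13906843-13908189) had 31.0, 154 and 8.96 FPKM in the knockout, against 56.3, 540.2 and 16.7 FPKM in wild type, with 556 FPKM at 1-2 h. In all 5 of these small genes the knockout value at 2-3 h lay below the wild-type values at both 1-2 h and 2-3 h. The same held for 27 of the 31 transient genes, 152 of the 178 sustained risers and 31.0% of all genes.

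Not every transient gene came down again in the knockout. The knockout level was highest at 4-5 h for CG12420, CG13653, Pka-C3, CG14937 and CG15479 (now Mabi), and for the first 4 of these the 4-5 h interval lay above the 2-3 h interval, where 34.5% of all genes and 168 of the 178 sustained risers had that order. CG12420 had 0.486, 14.2 and 42.0 FPKM in the knockout, against 1.58, 209.6 and 64.8 FPKM in wild type, with 58.4 FPKM at 1-2 h and 126 FPKM at 3-4 h. It was the 1 gene at least 2-fold higher at 4-5 h than at 2-3 h in the knockout, by 1.50, where 13.2% of all genes and 156 of the 178 sustained risers were. In wild type its fall of 3.24-fold was the smallest of the 31.

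CG13653 had 0.259, 2.22 and 5.15 FPKM in the knockout, against 0.434, 49.2 and 11.7 FPKM in wild type, with 12.3 FPKM at 1-2 h. At 2-3 h it showed the largest deficit of all 31 genes, with the knockout at 4.52% of wild type. Pka-C3, which encodes a catalytic subunit of the cAMP-dependent protein kinase type, had 0.142, 5.91 and 7.49 FPKM in the knockout, against 0.201, 95.7 and 11.6 FPKM in wild type, with 25.5 FPKM at 1-2 h. The remaining members of this group were CG14937, with 2.45, 19.9 and 23.4 FPKM in the knockout against 3.12, 196 and 39.7 FPKM in wild type, and CG15479, with 3.44, 8.36 and 9.15 FPKM against 5.99, 57.5 and 10.1 FPKM. All 5 genes were at least 2-fold lower in the knockout than in wild type at 2-3 h, and of the 5 only CG13653 was still that much lower at 4-5 h.

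**Figure D5:**
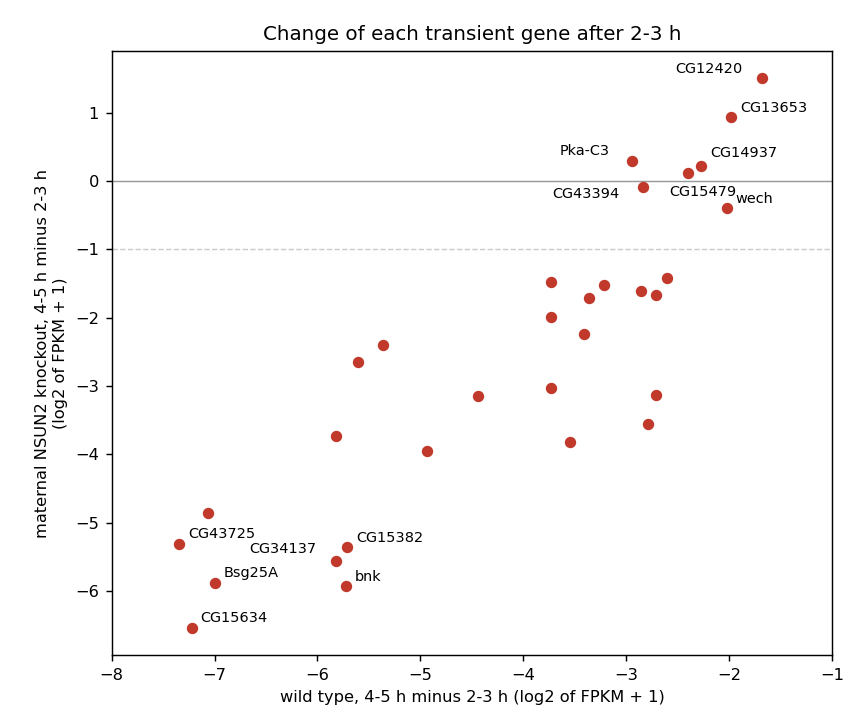
Difference between 4-5 h and 2-3 h on the log2(FPKM + 1) scale, in wild type (x axis) and in the knockout (y axis), for each of the 31 transient genes. All points lay left of -1 on the wild-type axis, as the rule required, and 24 lay below the dashed line at -1 on the knockout axis; CG12420, CG13653, Pka-C3, CG14937 and CG15479 lay above 0.

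At the other end, 5 genes were nearly gone in the knockout by 4-5 h. CG15634, bnk, Bsg25A, CG34137 and CG15382 had the lowest ratios, with differences between 4-5 h and 2-3 h of -6.53 to -5.35. CG15382 (2L:2155760-2156790), with no role given here, had 23.3, 76.1 and 0.885 FPKM in the knockout, against 39.2, 144 and 1.77 FPKM in wild type, with 270.1 FPKM at 1-2 h and 3.05 FPKM at 3-4 h. All 5 of these were genes whose wild-type level was highest at 1-2 h, and at 4-5 h each stood at 2.27 FPKM or less in the knockout.

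term and CG7271 stood apart from the rest by their later wild-type peak. term encodes a zinc finger protein of the early embryo and had 1.74, 14.9 and 0.823 FPKM in the knockout, against 0.887, 17.1 and 1.76 FPKM in wild type, with 12.8 FPKM at 1-2 h and 36.4 FPKM at 3-4 h. CG7271 had 1.69, 17.0 and 0.534 FPKM in the knockout, against 1.07, 12.6 and 0.963 FPKM in wild type, with 13.1 FPKM at 1-2 h and 27.2 FPKM at 3-4 h. These genes lie side by side on 3L, 2137 bases apart and with no gene between. The knockout has no table at 3-4 h, so their peak there could not be compared. The difference of CG7271 at 2-3 h was 0.40 as deposited, -0.11 after median-of-ratios scaling and -0.37 after quantile normalization, so its direction depends on the scaling.

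The 5 genes not yet described were gk, Ac78C, CG6885, CG43394 and CG43659. gk (geko), known from an odour response mutant, had 3.88, 12.05 and 2.28 FPKM in the knockout, against 2.62, 61.3 and 3.68 FPKM in wild type. Ac78C, an adenylyl cyclase gene, had 0.243, 3.90 and 0.762 FPKM in the knockout, against 0.289, 22.5 and 0.778 FPKM in wild type. CG6885, CG43394 and CG43659 were lower in the knockout at 2-3 h by differences of -1.97, -3.44 and -2.17. CG43394 was nearly level in the knockout between 2-3 h and 4-5 h, with 4.59 and 4.27 FPKM and overlapping intervals. CG43659 was the 1 gene whose knockout value at 2-3 h, 31.9 FPKM, was below the wild-type value at 0-0.5 h, 32.6 FPKM, and the intervals overlapped (26.8 to 37.0 FPKM and 26.7 to 38.5 FPKM).

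By 4-5 h the genotypes had come closer for most transient genes. Some had moved further apart in FPKM ratio. From 2-3 h to 4-5 h slam went from 2.51-fold to 9.92-fold higher in the knockout. Over the same time the knockout level as a share of wild type went from 81.4% to 38.2% for bnk, 71.8% to 53.9% for Sry-alpha and 87.3% to 46.7% for term. At 4-5 h 3 of the 31 were at least 2-fold lower in the knockout (CG14915, CG34137 and CG13653), where 7.03% of all genes were, and slam was at least 2-fold higher, where 10.9% were. The median difference was -0.58, against -0.18 for all genes and -0.92 for the sustained risers, of which 60 of 178 were at least 2-fold lower. A lower value was found in 29 of the 31 genes (59.0% of all genes), with intervals apart in 19, where 43.9% of all genes had lower values with intervals apart. Among the sustained risers 176 of 178 were lower, 174 of them with intervals apart. Bsg25D and slam were the higher ones. The wild-type 4-5 h level chose the genes as low ones at that time, so this contrast is also in part set by the choice. The marker sums differed at this time as well, with 1598 FPKM in the knockout and 643 FPKM in wild type for the maternal list. CycB alone had 863 and 526 FPKM of these sums, and the medians of the 8 maternal markers were 58.7 and 14.1 FPKM. Wild-type CycB stood at 138 FPKM at 2-3 h and 670 FPKM at 3-4 h. The early zygotic list summed to 190.5 and 364 FPKM, with medians of 9.51 and 16.9 FPKM. The later list summed to 218 and 531 FPKM, of which HLHmgamma alone had 178 and 453 FPKM. Its medians were 5.37 and 11.2 FPKM. The part of the markers in the result was not tested.

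At 0-0.5 h, before most zygotic transcription, the transient genes were on the whole a little lower in the knockout. The median difference was -0.39, against 0.03 for all genes and -0.35 for the sustained risers. SNCF alone was at least 2-fold lower (1.37% of all genes were) and none of the 31 was at least 2-fold higher (6.65% of all genes were). In 24 genes the knockout value was the lower one (42.7% of all genes), with intervals apart in 16 (22.1% of all genes). Of the sustained risers 122 of 178 were lower, 85 of them with intervals apart. In 5 genes (hrg, Bsg25D, Sry-alpha, slam and term) the knockout was higher with intervals apart, where 35.4% of all genes and 33 of the 178 sustained risers were. The marker sums differed at 0-0.5 h too. The maternal list summed to 3209 FPKM in the knockout and 2577 FPKM in wild type. The early zygotic list summed to 38.6 and 89.1 FPKM, with medians of 1.81 and 1.94 FPKM. Of that list, sisA had 9.30 FPKM in the knockout and 34.1 FPKM in wild type, and sc 10.9 and 25.1 FPKM. The part of the markers in the result was not tested.

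The knockout was also set against younger wild-type embryos, a comparison chosen after the values had been seen. The knockout at 2-3 h was at least 2-fold lower than wild type at 1-2 h in 25 of the 31 genes, where 3.98% of all genes were, with a median difference of -1.81 against 0.04 for all genes. The sustained risers had a median difference of -0.87 in this comparison, with 74 of 178 at least 2-fold lower. For 26 transient genes the knockout value at 2-3 h lay between the wild-type values at 0-0.5 h and 1-2 h, and so did those of 130 of the 178 sustained risers and 12.3% of all genes. It was at or above wild type at 1-2 h for Sry-alpha, slam, term and CG7271, and under wild type at 0-0.5 h for CG43659. The knockout at 4-5 h was at least 2-fold lower than wild type at 3-4 h in 26 of the 31 genes, where 16.5% of all genes were, and lower at all in 30, slam being the exception. Of all genes 61.4% were lower at all, and of the sustained risers 176 of 178.

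The rule set only a minimum of 300 bases on the locus span, and it used neither exon number nor place in the genome. The median locus span of the transient genes was 1347 bases, against 2700.5 bases for the sustained risers and 2476 bases for all genes tested. In 23 of the 31 the locus was under 2000 bases (74.2%, against 40.4% of the sustained risers and 41.0% of all genes). In the BDGP6.54 annotation, matched by gene identifier, 15 of the 31 had no transcript with more than 1 exon (48.4%, against 19.0% of the 168 matched sustained risers and 11.4% of all matched genes). The longest locus was that of Ac78C, with 35484 bases, and Pka-C3 spanned 28994 bases.

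Their places in the genome were uneven as well. 12 of the 31 lay on 2L (38.7%, against 18.7% of all genes) and 1, CG14427, on the X (3.23%, against 15.8% of all genes). On 3L there were 8, on 3R 6, on 2R 4 and on chromosome 4 none. In 3 cases a pair of members had no gene between them: Bsg25A with CG15634, term with CG7271, and CG14915 with CG43725, which were 3980 bases apart. In the last pair CG43725 was more nearly gone at 3-4 h in wild type, with 15.6 FPKM, than CG14915, with 269 FPKM. These counts are descriptions of a set chosen on expression.

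Some members overlap other listed genes, which matters where reads of both cannot be told apart by strand. The loci of 10 of the 31 overlap another one, and the authors mapped the reads with strand. CG14111, which covers all of SNCF, had 2.84 FPKM in the knockout at 2-3 h and 19.97 FPKM in wild type, against 162 and 1664 FPKM for SNCF, and at 4-5 h it had 7.28 FPKM in the knockout and 13.9 FPKM in wild type, against 25.1 and 33.2 FPKM for SNCF. CG8552 covers all of CG43394 and stood far above it in the knockout, with 40.3 and 32.3 FPKM at 2-3 h and 4-5 h against the 4.59 and 4.27 FPKM of CG43394. CG42748 covers CG34137 and at 4-5 h was the higher of the pair, with 15.6 FPKM in the knockout and 9.57 FPKM in wild type. aop, which shares 307 bases with CG15382, had 34.4 FPKM in the knockout and 67.1 FPKM in wild type at 4-5 h, far above CG15382. CG11929, which covers Bsg25A, stayed under 0.5 FPKM in all tables, and CG31004, which covers bnk, under 1 FPKM. CG12817 shares 306 bases with CG12420 and had 0.440 FPKM in the knockout at 2-3 h and 6.79 FPKM in wild type. The part of these overlaps in the members' values was not tested.

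The edges of the rule were close for some genes. At the edge of the rise, slam was just inside with 3.03 times its 0-0.5 h level, and CG15876 just outside with 2.66 times. On the fall, CG12420 was inside with 3.24 times and Mdr49 outside with 2.91 times, followed by mud with 2.73 times. At the level of 10 FPKM, CG7271 was inside with 12.6 FPKM and CG12817 outside with 6.79 FPKM. On the span, CG43659 was inside with 336 bases and CG43184 outside with 246 bases, although CG43184 reached 169.6 FPKM in the knockout and 513 FPKM in wild type at 2-3 h.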

How the data were processed

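The authors trimmed reads with cutadapt 1.13, aligned the pairs with TopHat2 to BDGP5 in a strand-aware mode, and ran Cufflinks on unique alignments. The deposited values are the resulting FPKM and the lower and upper bound of each. bcl2fastq 2.17 is also named in the submitters' notes. FPKM is relative to library depth, so that abundant genes which change shift the values of all others. The methods speak of averaged replicates, and whether a table holds 1 library, a pool or a mean is not given in the sources used here. Spike-in RNA was added per the labels, but none was used here.

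Differences were taken in log2(FPKM + 1). A difference of at least 1 on this scale was called 2-fold. The background was the 8497 genes with OK status in all 8 tables, a span of at least 300 bases and at least 1 FPKM in at least 1 table. With 1 table per condition no test was run. Members and lists were chosen with earlier results of these data known. Full values were given for the 12 members most abundant in wild type at 2-3 h, members on a role list, the 5 with the highest and the 5 with the lowest change from 2-3 h to 4-5 h in the knockout, and those nearest each threshold. Of the remaining genes with values, gk, Ac78C, CG43394, nullo, CG9883, CycB, stg, dap, ftz, eve, Cp15 and the overlapping genes were named after their values were seen. The comparisons with younger wild type and the thresholds applied to the knockout were also chosen then.

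Gene symbols are those of the tables. Exon counts and current names came from the BDGP6.54 annotation by gene identifier, and all 31 members matched. Coordinates are those of the tables (BDGP5). No sequence is shown, since none was at hand for this build. Alternatives were a pseudocount of 0.1, median-of-ratios scaling, quantile normalization, non-overlapping intervals, and a rule with a fold of 5, an FPKM minimum of 20, interval bounds or no span minimum. Python 3.11.15, numpy 2.4.6, pandas 2.3.3, scipy 1.17.1 and matplotlib 3.10.9 were used, and the steps were tested on simulated data.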

Additional observations from a re-analysis of the deposited data

Results flagged for a closer look

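For 4 of the transient genes the change from 2-3 h to 4-5 h ran in opposite directions in the genotypes, with intervals that did not overlap: upward in the knockout and downward in wild type. The knockout difference was 1.50 for CG12420, 0.93 for CG13653, 0.30 for Pka-C3 and 0.22 for CG14937 on the log2(FPKM + 1) scale, against -1.68, -1.98, -2.94 and -2.27 in wild type. In the knockout, 34.5% of all genes and 168 of the 178 sustained risers were higher at 4-5 h than at 2-3 h with intervals apart. These 4 genes are 12.9% of the transient genes, below both shares. The downward wild-type change is what the rule selected, with 1 table per condition, and the difference between the genotypes was not tested.

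For Bsg25D the knockout was above wild type at 4-5 h, by 0.42 on the same scale, and below it at 2-3 h, with a difference of -0.63. The intervals of the 2 genotypes were apart at both times. The difference between the times was not tested.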

How the results depend on the processing

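The rule gave 31 genes as reported, 19 with a fold of 5, 29 with an FPKM minimum of 20, 29 when it was applied to the interval bounds and 37 without the span minimum. Among the 19 genes of the 5-fold rule, 18 were at least 2-fold higher at 2-3 h than at 0-0.5 h in the knockout, 16 were at least 2-fold lower at 3-4 h than at 2-3 h in wild type, and 19 were at least 2-fold higher at 1-2 h than at 0-0.5 h. The number at least 2-fold higher in the knockout than in wild type at 4-5 h, 1 as reported (slam), was 0 with a fold of 5 and 0 on the interval bounds, where slam no longer met the rule. The number at least 2-fold higher at 4-5 h than at 2-3 h in the knockout, 1 as reported (CG12420), was 2 with a pseudocount of 0.1 and 2 after median-of-ratios scaling (CG13653 joined it in both), and 0 with a fold of 5 and 0 on the interval bounds. The median difference between the genotypes at 4-5 h, -0.58 as reported, was -0.75 with a pseudocount of 0.1. The other counts of members put through these settings stayed within 1.5 times. At 2-3 h the number at least 2-fold lower in the knockout was 22 to 27 of the 29 or 31 genes and 16 of the 19. The number at least 2-fold lower at 4-5 h, 3 as reported, was not among these counts and was less stable. With a pseudocount of 0.1, bnk (-1.17), CG43659 (-1.07) and term (-1.01) also passed 2-fold there. Z600 passed it after median-of-ratios scaling (-1.04) and quantile normalization (-1.01). No called difference of a member changed sign, and in 5 of 279 checks an uncalled one did. slam at 2-3 h was under 2-fold with both scalings. Scaling moved the median of all genes by up to -0.61 as a difference, at 3-4 h against 2-3 h in wild type. At 4-5 h the half-width of an interval reached 55.5% of the value in the knockout and 64.6% in wild type, which limits the ratios there.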

Other observations

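Several genes just outside the rule had the same short course. CG43184, whose locus of 246 bases was too short for the rule, had 52.2, 169.6 and 1.33 FPKM in the knockout at 0-0.5 h, 2-3 h and 4-5 h, against 87.0, 513 and 1.96 FPKM in wild type at the same times. CG15876, which missed the rise, had 34.8, 52.8 and 1.10 FPKM in the knockout, against 66.0, 176 and 2.62 FPKM in wild type, with 238 FPKM at 1-2 h. Neu2, with a rise of 2.53 times, had 9.85, 24.3 and 2.43 FPKM in the knockout, against 12.5, 31.7 and 3.42 FPKM in wild type, with 66.3 FPKM at 1-2 h. Each of the 3 was highest at 1-2 h in wild type, and each had a lower value in the knockout at the 3 matched times. At 4-5 h, when 59.0% of all genes were lower, the knockout and wild-type intervals overlapped for 2 of them. These were CG43184 (0 to 2.87 and 0 to 4.23 FPKM) and CG15876 (0.552 to 1.66 and 1.59 to 3.65 FPKM).

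mud, which encodes a spindle protein and missed the fall, had 15.4, 27.0 and 25.9 FPKM in the knockout, against 10.4, 113 and 41.4 FPKM in wild type, with 35.0 FPKM at 1-2 h and 56.3 FPKM at 3-4 h. Its knockout level was flat between 2-3 h and 4-5 h. CG43184, CG15876, Neu2 and mud were named after their values were seen.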
